A study of Xenopus laevis with 5 samples.

Results

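The MCM genes are the minichromosome maintenance family of DNA replication, taken here as mcm2 to mcm7 and mcm10 with their maternal and zygotic paralogs. Members were every gene probe whose accession the supplied RefSeq gene table assigns to such a gene. This gave 20 probes for 13 genes, of 43653 gene probes and 10007 named genes on the array. The table lists 14 MCM genes, and the one without a probe was mcm2.S. The suffixes .L and .S name the gene copies on the long and short chromosomes of this allotetraploid frog. Testis RNA came from Xenopus laevis, the African clawed frog, exposed from tadpole life onwards for 90 days to simazine, a chlorotriazine herbicide, at 100 µg/L (3 samples) or held without it at 0 µg/L (2 control samples). The question was whether RNA of the replication licensing genes differs between these groups. Each sample was hybridised to 1 one-colour Agilent array, and the series text speaks of separate testes without saying that each came from its own animal, so the spread behind each p-value may be partly technical.

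MCM2 to MCM7 together form the ring-shaped core of the replicative helicase. In G1 phase the origin recognition complex, CDC6 and CDT1 load this ring on DNA, which licenses an origin to fire once, and CDC45, the GINS complex and MCM10 then help to turn it into an active helicase. Xenopus eggs store these proteins and their mRNAs for the rapid divisions of the embryo. For MCM3 and MCM6 the frog has separate genes for a maternal form, made in the oocyte (mcm3.L and mcm6.L), and a zygotic form, used later in development (zmcm3.L and the mcm6.2 genes). In the testis, replication takes place mainly in spermatogonia and in germ cells about to enter meiosis.

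Levels are log2 of the processed signal minus the log2 of the array's 75th percentile, so 0 is the 75th percentile of the array, and a difference of 1 is a fold of 2. Levels of different probes are not comparable. Control 1 and simazine 2 carry the same scan time stamp (scan 1), and control 2, simazine 1 and simazine 3 share the other (scan 2). The scanner software marked 44.0% and 42.6% of gene spots on the arrays of scan 1 as non-uniform or outlying, against 5.78% to 9.999% on those of scan 2. Among the 20 MCM probes, 16 were marked on control 1 and 15 on simazine 2, against 4, 4 and 2 on control 2, simazine 1 and simazine 3. With marked spots left out, 15 of the 20 probes could be tested, 13 of them on 1 control value. Values were therefore also computed in 2 other ways, one with marked spots kept and one with marked spots kept and locally distorted areas of the arrays left out. An area counted as distorted where neighbouring spots shifted together by more than 0.5 log2 units on at least 1 array. In the last set, 14 probes of 9 MCM genes stood, and no sentence below calls a gene changed from probes in distorted areas.

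Of the MCM genes, the maternal gene mcm3.L fell, by 8.17-fold, in the fits that kept both of its control values, and it did not pass in the fit without marked spots, which holds 1 control value for it. Its level was -2.16 on control 1 and -2.12 on control 2, against -5.00, -5.42 and -5.09 on simazine 1, 2 and 3. Both controls thus lay far above all 3 simazine arrays, with no overlap and with a spread of 0.03 (SD, n = 2) in the controls and 0.22 (SD, n = 3) in simazine. The processed signal of the probe was 1497 and 549 in controls and 77.4, 114 and 46.0 in simazine, and it was well above background on all 5. The log2 difference, simazine minus control, was -3.03 (SE 0.292, limma, adjusted p = 0.0323 over all probes) with distorted areas left out. In the same values it was -3.07 (SE 0.175, limma, adjusted p = 0.0108) with the scan as a block. It was -3.26 within scan 1, and -2.88 and -2.97 for simazine 1 and simazine 3 within scan 2. Leaving marked spots out removes control 1 and simazine 2 for this probe. The difference was then -2.93 (n = 1 control and 2 simazine values), with or without the scan as a block, and it passed in neither fit. The call also ended when any 1 of the 5 arrays was left out (adjusted p from 0.0708 without simazine 2 to 0.297 without control 2, difference from -3.11 to -2.91). Under normexp background correction of the median signals, with an offset of 50 then added to every signal, the difference of this dim probe was -1.73. That fit also left marked spots out, so it too rests on 1 control and 2 simazine values. Among its neighbours on the array the local deviation reached 0.46 on simazine 3 and -0.41 on simazine 2, just inside the limit of 0.5.

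**Figure D1:**
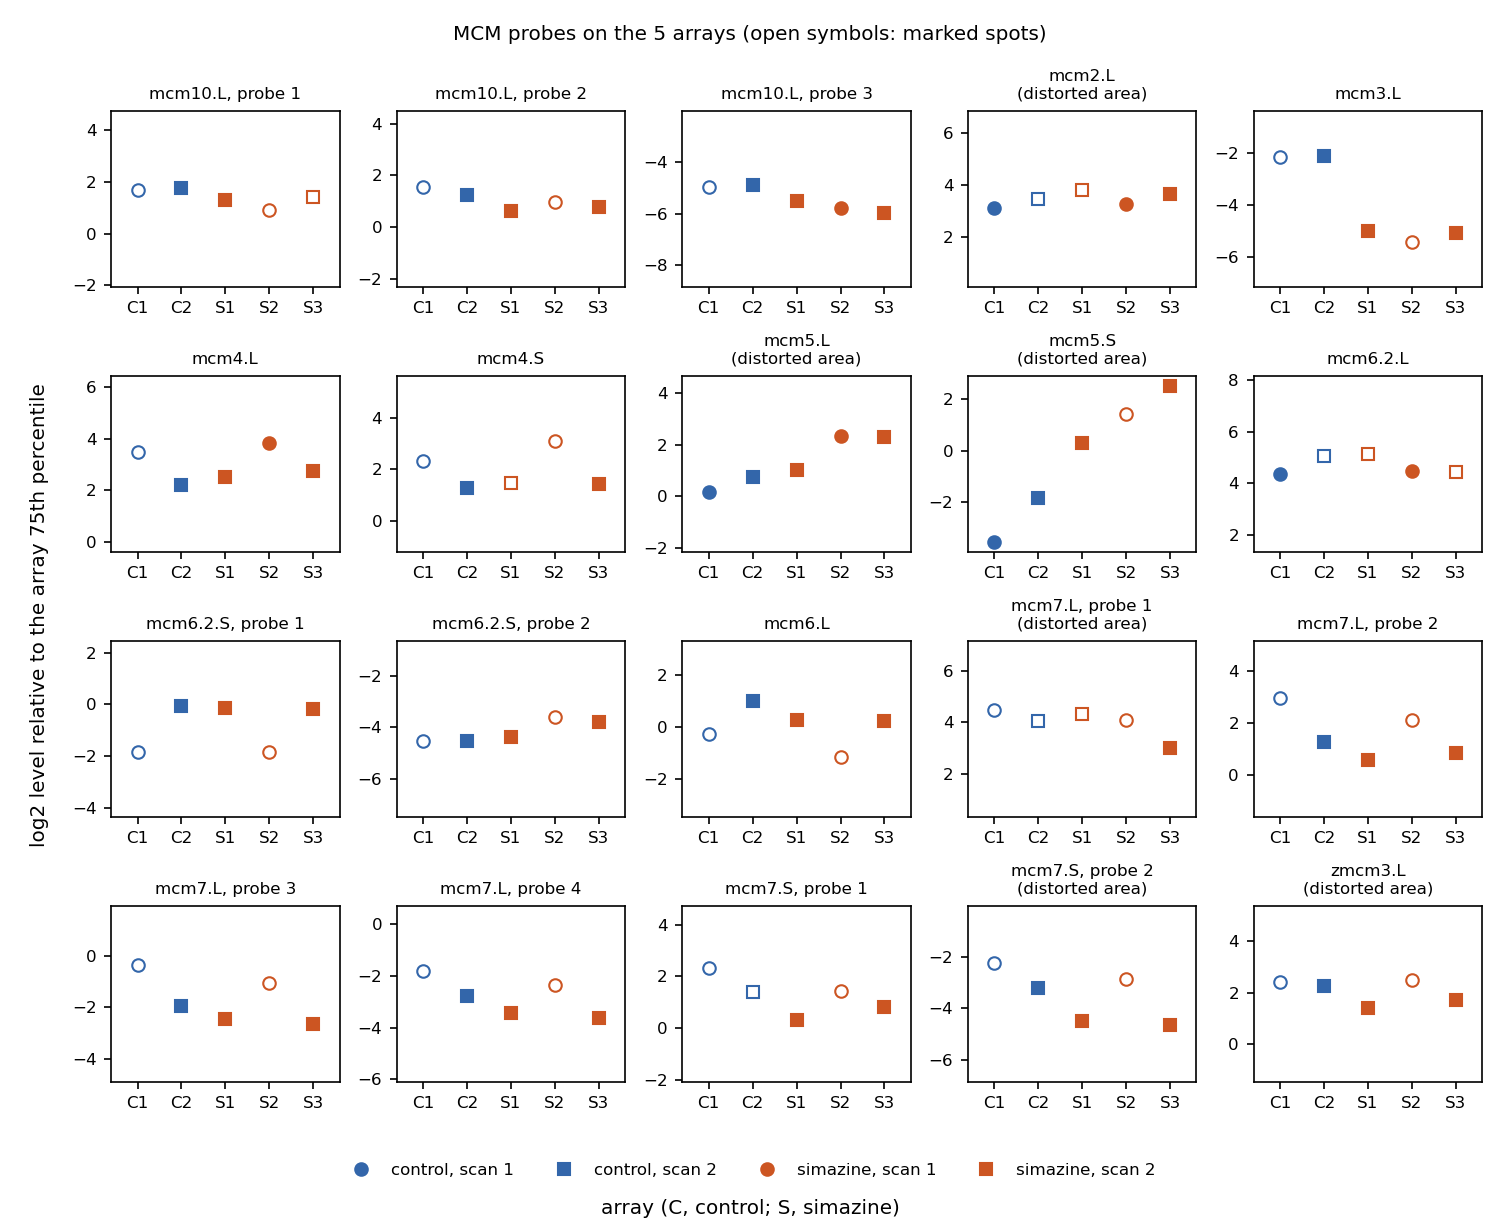
Log2 level relative to the array's 75th percentile (y axis, the same span of units in each panel) for the 20 MCM probes on the 5 arrays (x axis: C1 and C2 are controls 1 and 2, S1 to S3 are simazine 1 to 3). Circles are scan 1, squares scan 2, and open symbols are spots marked by the scanner software. For mcm3.L both controls stand near -2.1 and the 3 simazine arrays near -5.2, while in the mcm6.L probe and all mcm7 probes the groups overlap.

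The zygotic counterpart zmcm3.L gave 2.40 and 2.25 on controls 1 and 2, and 1.39, 2.50 and 1.72 on simazine 1, 2 and 3. Simazine 2 lay above both controls and the other simazine arrays below them, so the groups overlapped. The probe lies in an area distorted on simazine 1 (local deviation -0.60). Its difference with marked spots kept was -0.46 (SE 0.431, adjusted p = 1.00). The 2 MCM3 genes were compared within each array through the ratio of the maternal to the zygotic probe. Relative to the control mean this log2 ratio was -1.92, -3.45 and -2.34 on simazine 1, 2 and 3, and -0.10 and 0.10 on the controls. The mean difference was -2.57. Every simazine array lay below both controls, and the exact two-sided permutation test over the 10 splits of the arrays gave p = 0.2, the smallest this design allows. Of 5 pairs of MCM genes compared in this way, the smallest adjusted p was 0.5 (exact permutation tests). The pair of mcm7 copies, whose log2 ratio was higher in simazine by 0.55 on average, rests on an mcm7.L probe in a distorted area.

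The MCM6 genes did not show a difference of that size. The maternal gene mcm6.L had -0.27 and 1.01 on controls 1 and 2, and 0.29, -1.17 and 0.25 on simazine 1, 2 and 3. The groups overlapped, since the scans differed by more than 1 unit, but within each scan the simazine arrays were lower, by 0.89 for simazine 2 and by 0.72 and 0.76 for simazine 1 and simazine 3. With distorted areas left out the difference of mcm6.L was -0.58 (SE 0.638, adjusted p = 1.00), and with the scan as a block it was -0.81 (SE 0.159, unadjusted p = 0.00558, adjusted p = 0.195). The zygotic gene mcm6.2.L had 4.34 and 5.04 on controls 1 and 2, and 5.15, 4.46 and 4.42 on simazine 1, 2 and 3. These values interleave, and the difference was -0.02 (SE 0.399, adjusted p = 1.00). For mcm6.2.S, the brighter probe had levels of -1.86 and -0.05 in controls 1 and 2, and of -0.13, -1.84 and -0.18 in simazine 1, 2 and 3. It followed the scan and not the group, with differences of 0.01 within scan 1 and of -0.07 and -0.13 within scan 2. Its dimmer probe had -4.53 and -4.52 in controls, against -4.37, -3.60 and -3.79 in simazine, so its groups did not overlap, with simazine higher (0.61, SE 0.346, adjusted p = 1.00). The maternal to zygotic log2 ratio of MCM6 was lower in simazine by 0.56 on average against mcm6.2.L (exact two-sided permutation p = 0.4) and by 0.82 against mcm6.2.S (exact two-sided permutation p = 0.2).

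**Figure D2:**
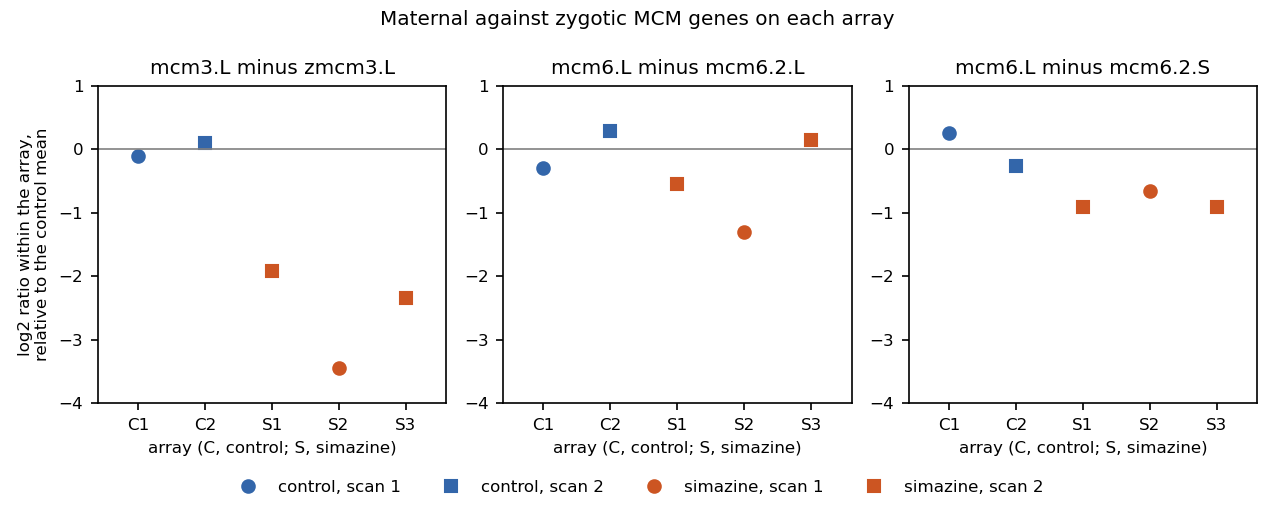
Log2 ratio of the maternal to the zygotic probe on each array, relative to the mean of the 2 controls (y axis), for mcm3.L against zmcm3.L, mcm6.L against mcm6.2.L and mcm6.L against mcm6.2.S (x axis: the 5 arrays). On simazine arrays the MCM3 ratio lies at -1.92 to -3.45, and the MCM6 ratios lie between -1.30 and 0.15. The zmcm3.L probe lies in a distorted area.

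The genes mcm7.L and mcm7.S, for another subunit of the helicase ring, were read by 6 probes. In the 4 outside distorted areas both arrays of scan 1 lay above all 3 of scan 2, in 1 of them by a narrow margin. The brightest probe of mcm7.L outside distorted areas had 2.98 and 1.27 on controls 1 and 2, and 0.55, 2.13 and 0.83 on simazine 1, 2 and 3. The probe of mcm7.S outside distorted areas had 2.32 and 1.39 on the controls, and 0.30, 1.42 and 0.80 on simazine. In both, simazine 2 lay above control 2, yet each simazine array was below the control of its own scan. This order held for all 4 mcm7 probes outside distorted areas, with differences from -0.91 to -0.55 within scan 1 and mean differences from -0.84 to -0.58 within scan 2. With the scan as a block the 4 probes gave -0.87 to -0.65 (SE 0.163 to 0.222, unadjusted p from 0.0138 to 0.0177), and none passed adjustment over all probes (adjusted p from 0.289 to 0.316). Without the block their adjusted p was 1.00. Of the probes in distorted areas, one of mcm7.S was also lower within both scans, by 0.59 for simazine 2 and by 1.26 and 1.42 for simazine 1 and simazine 3. The other, of mcm7.L, was higher on simazine 1 than on control 2 by 0.27. Probes of the same gene and of the .L and .S copies can share target sequence, so these are not independent readings.

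The gene mcm10.L, whose product binds the ring and helps to activate it, was read by 3 probes, all outside distorted areas. The brightest had 1.67 and 1.75 on controls 1 and 2, and 1.30, 0.93 and 1.42 on simazine 1, 2 and 3. The second had 1.55 and 1.23 on the controls, and 0.62, 0.98 and 0.78 on simazine. The dimmest had -4.98 and -4.88 in controls, against -5.51, -5.79 and -5.97 in simazine, and on simazine 3 it was not well above background. In each probe all 3 simazine arrays lay below both controls. The differences were -0.49, -0.60 and -0.83 (SE 0.30, 0.296 and 0.296, adjusted p = 1.00 for each), and with the scan as a block -0.54, -0.55 and -0.84 (unadjusted p = 0.0355, 0.0247 and 0.0142, adjusted p = 0.407, 0.353 and 0.292).

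The mcm4 copies, for a subunit next to MCM6 and MCM7 in the ring, did not share the lower values. The copy mcm4.L had 3.49 and 2.19 on controls 1 and 2, and 2.50, 3.84 and 2.74 on simazine 1, 2 and 3. The copy mcm4.S had 2.33 and 1.30 on the controls, and 1.48, 3.12 and 1.43 on simazine. Both were highest on simazine 2, followed by control 1, the other array of that scan. Within scans every simazine array was above its control, by 0.31 to 0.54 for mcm4.L and by 0.12 to 0.79 for mcm4.S, and the block gave 0.39 (SE 0.172, adjusted p = 0.515) and 0.43 (SE 0.217, adjusted p = 0.581). The log2 ratio of mcm4.L to mcm4.S, relative to the control mean, was -0.14 to 0.14 on the controls and -0.31 to 0.28 on the simazine arrays, with a mean difference of -0.01.

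For mcm2 and mcm5, which stand at the gate where the ring opens, all probes lie in distorted areas. The probe of mcm2.L had 3.12 and 3.47 on controls 1 and 2, and 3.79, 3.25 and 3.64 on simazine 1, 2 and 3, with overlapping groups. The probe of mcm5.L had 0.18 and 0.73 on the controls, and 1.01, 2.32 and 2.30 on simazine. The probe of mcm5.S had -3.55 and -1.85 on the controls, and 0.31, 1.41 and 2.51 on simazine. Both mcm5 probes were higher on all simazine arrays, with differences of 1.42 and 4.11 when marked spots were kept (adjusted p = 0.511 and 0.115). The spots around mcm5.S deviated together by -2.64 on control 1, -2.33 on control 2 and 1.01 on simazine 3, and those around mcm5.L by 0.83 on control 2 and 0.62 on simazine 3. These local shifts run the same way as the group difference for mcm5.S, and no statement on mcm5 RNA is drawn from them.

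**Figure D3:**
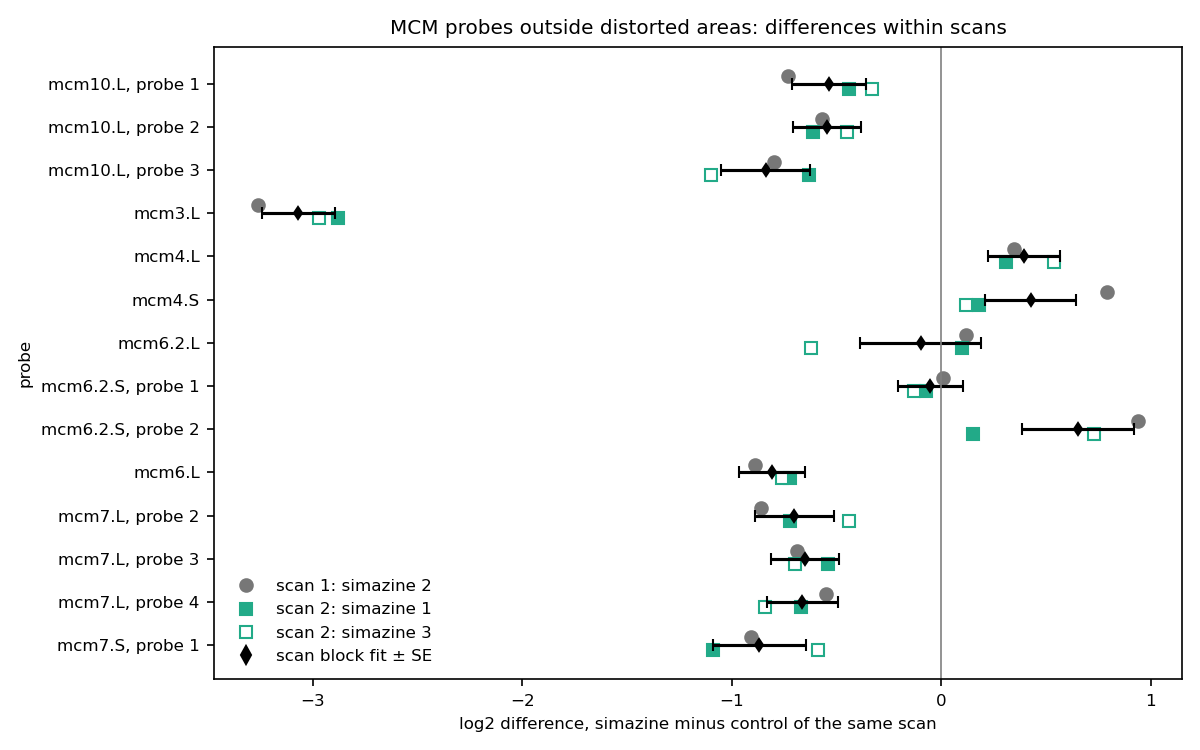
Log2 difference between each simazine array and the control array of the same scan (x axis) for the 14 MCM probes outside distorted areas (y axis). Circles are simazine 2 (scan 1), filled and open squares simazine 1 and simazine 3 (scan 2), and diamonds with bars the scan block fit with its SE. The probe of mcm3.L stands at -3.26 to -2.88, the mcm10.L, mcm6.L and mcm7 probes lie below 0 on all 3 arrays, and the mcm4 probes lie above 0.

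Counted over the family, 1 of 14 probes passed the adjusted p of 0.05 with distorted areas left out, mcm3.L, against 0.385% of the 26995 probes tested that were called lower (limma); over genes this was 1 of 9, against 0.717%. With the scan as a block and distorted areas left out, mcm3.L was again the 1 probe that passed, against 0.885% of probes called lower. With the block and marked spots left out, as planned, its difference was -2.93 on 1 control value, and it did not pass. With marked spots left out 0 of 15 passed, against 0.00314% of 31882 probes called lower (limma), with 2 lower and 2 higher at an unadjusted p of 0.05 (background 5.64% and 2.86%). By the looser rule, a 2-fold difference with unadjusted p below 0.05, mcm3.L was the 1 MCM probe called lower with distorted areas left out, where 2.28% of probes were, and 0 were higher, where 0.771% were. With marked spots left out this rule took mcm3.L and 1 mcm7.S probe as lower (background 5.33%) and mcm5.L and mcm5.S as higher (background 2.39%); the mcm5 probes and this mcm7.S probe lie in distorted areas. With the scan as a block and distorted areas left out, 9 of 14 probes were lower at an unadjusted p of 0.05, for 5 of 9 genes, against 5.18% of probes and 5.96% of genes, and 0 were higher, against 5.78% of probes. The 9 were 4 probes of mcm7.L and mcm7.S, 3 of mcm10.L and 1 each of mcm3.L and mcm6.L. This block fit, here and wherever it is given, was added after seeing the data. In the planned block fit, with marked spots left out, fewer MCM probes were lower at that p. Of the 9, mcm3.L remained, while those of mcm6.L, mcm7 and mcm10.L did not reach that p or were not tested there. Most MCM probes in that planned fit had 1 control value. In the same 9 probes every simazine array lay below the control array of its scan, which held for 17.3% of all probes and 19.1% of all genes; this last count was chosen after the values were seen. The groups did not overlap for 4 probes with simazine lower (3 of mcm10.L and that of mcm3.L) and for 1 with simazine higher, against 6.85% and 7.51% of probes. The median difference over the 9 MCM genes was -0.49 (-0.25 over the 8 without mcm3.L), and over all 8089 genes it was 0.00. This median depends on which spots, genes and probes are used. With marked spots kept and no area left out it was -0.02 over 13 MCM genes, beside 0.01 over all 9709 genes. With marked spots left out and no area left out it was -0.53 over 11 MCM genes, beside 0.08 over all 8563 genes.

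The other genes of replication were described by a list of 78 names, of which 51 had a tested probe, giving 58 genes with the .L and .S copies. Their median difference was -0.10 with distorted areas left out, and 34 of 58 were below 0, as were 50.4% of all genes. Of them 0 passed adjustment over all probes in limma in either direction (background 0.717% of genes lower), with 3 lower and 0 higher at an unadjusted p of 0.05 (background 3.34% and 0.964%). By the looser rule 2 were lower and 0 higher (background 2.73% and 0.494% of genes). One was orc1.L, an ATP-binding subunit of the origin recognition complex, with -3.68 and -3.13 on controls 1 and 2 and -5.58, -5.79 and -5.99 on simazine 1, 2 and 3. Its groups lay apart (-2.38, SE 0.326, adjusted p = 0.0885), it fell by 2.42 with the scan as a block (adjusted p = 0.0411, background 1.32% of genes lower), and 2 of the 3 simazine arrays were well above background. The other was pold2.L, a subunit of DNA polymerase delta (-1.33, SE 0.504, adjusted p = 1.00). A brighter pold2.L probe, in a distorted area, gave -0.63 (SE 0.757) with marked spots kept, and its groups overlapped. For cdc6.S, a loader of the MCM ring, probes disagreed. Its brightest probe had 2.55 and 3.2 in controls, against 2.18, 1.47 and 2.33 in simazine (-0.88, SE 0.410, adjusted p = 1.00). Another probe, which takes its place when marked spots are left out, gave 1.49 (adjusted p = 0.260). The replication fork gene tipin.S had 1.06 (SE 0.848, adjusted p = 1.00). With the scan as a block, 6 of the 58 genes were lower at an unadjusted p of 0.05 and 0 higher (background 5.96% and 5.03% of genes). Besides orc1.L these were cdc6.S at -1.01, cdc6.L at -0.87 and cdt1.L at -0.75 (adjusted p = 0.134, 0.179 and 0.443), the single-strand binding gene rpa3.S at -0.63 and the cell cycle transcription factor gene e2f3.S at -0.59 (adjusted p = 0.286 and 0.418). All but orc1.L and cdc6.S were singled out after their values were seen. The other subunits of the origin recognition complex were not among them, with orc2.S at 0.38, orc3.S at -0.05, orc4.L at 0.24, orc5.L at -0.34 and orc6.L at 0.23.

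Markers of oocytes moved with the group. Of 31 listed oocyte and egg genes 21 were tested, giving 26 genes with copies, and their mean level was 1.48 and 1.30 on controls 1 and 2 against -1.41, -1.50 and -1.66 on simazine 1, 2 and 3. Both controls lay above all simazine arrays. With distorted areas left out, 13 of the 26 fell past the adjusted p of 0.05 (background 0.717% of genes) and 17 were lower by the looser rule (background 2.73%), with a median difference of -3.33. With marked spots left out, 0 of 24 passed the adjusted p in limma (background 0.00314% of probes lower). In that fit 17 were lower at an unadjusted p of 0.05 (background 5.64% of probes), and the median was -3.46. The oocyte genes were led, with distorted areas left out, by pou5f3.3.L, a maternal POU factor (-6.01, adjusted p = 0.00981), the oocyte linker histone h1-8.S (-5.44), the egg envelope gene zpax.L, well above background on 1 simazine array, and the oocyte importin kpna7.S (-5.65). All 26 were well above background on both controls, in samples labelled testis, and so were 24, 26 and 25 of them on simazine 1, 2 and 3. By these counts, detection alone does not set the groups apart. Some listed genes hardly moved, such as ybx2.L (0.02) and cpeb1.L (-0.02), named here for their small differences. The part of oocyte RNA in the MCM values was not tested, and in bulk samples fewer cells of a type and less RNA per cell cannot be told apart. Cell cycle genes outside replication had a median of -0.32 over 29 genes, with 26 of 29 below 0 (50.4% of all genes were). Of them 1 was lower and 0 higher past the adjusted p (background 0.717% lower), and 4 were lower and 0 higher at an unadjusted p of 0.05 (background 3.34% and 0.964%). Sertoli markers had a median of 0.07 over 10 genes and spermatid and sperm markers of 0.29 over 9. With distorted areas left out, 0 of them passed the adjusted p in limma. At an unadjusted p of 0.05, 0 Sertoli markers were called and 1 sperm marker was higher (background 0.964% of genes higher). By the looser rule 1 sperm marker was also higher (background 0.494%). With marked spots kept and distorted areas included, 1 of 13 sperm markers was higher past the adjusted p (limma). In those values 372 of 36380 probes passed in either direction. Too few genes stood for the rest, with 3 spermatocyte genes (median -0.25), 2 early germ cell genes (0.04) and 2 Leydig genes (0.18).

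**Figure D4:**
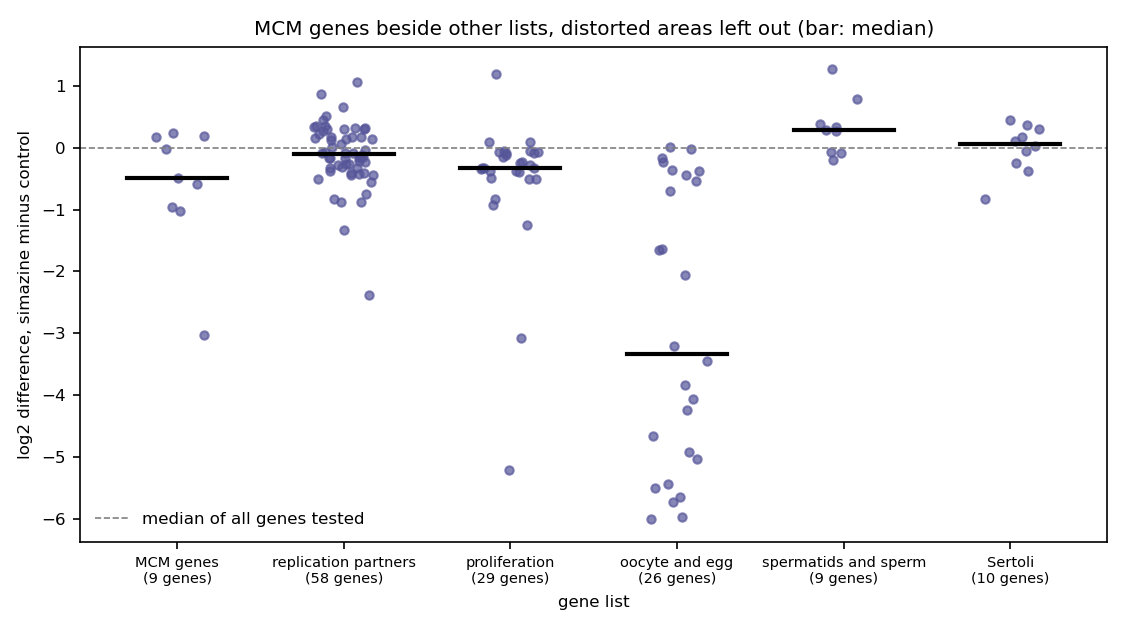
Log2 difference, simazine minus control, with distorted areas left out (y axis) for each gene of 6 lists (x axis); points are genes at their brightest tested probe, bars are medians, and the dashed line is the median of all genes tested. The MCM genes have a median of -0.49 with mcm3.L at -3.03, the other replication genes one of -0.10, and oocyte genes one of -3.33.

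Genes whose values over the 5 arrays were most like those of mcm3.L were ranked by the root mean square difference of centred log2 levels among 7794 other named genes. The nearest were foxi2.L, a forkhead factor known as maternal in Xenopus (0.161 log2 units, difference -2.86), depdc1.L (0.172, -2.92), the linker histone h1-3.L (0.179, -2.71), racgap1.2.L, of the cytokinesis machinery (0.185, -2.74), and stmn2.S, a stathmin (0.238, -3.32). All 5 were also below the adjusted p of 0.05 (0.0284 to 0.0423), which likeness to mcm3.L goes far to fix. The mean profile of the 9 MCM genes was 0.42 and 0.31 on controls 1 and 2 and -0.29, -0.17 and -0.27 on simazine 1, 2 and 3. About as much of it came from mcm3.L as from the rest, since the mean difference was -0.61 over the 9 genes and -0.31 over the 8 without mcm3.L. The genes nearest to it were slc13a3.L, emc8.S, ogdhl.L, spib.S and cdo1.L, at 0.058 to 0.074 log2 units, with differences of -0.62 to -0.53 and adjusted p of 1.00.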

How the data were processed

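The authors' deposited scanner tables give linear intensity per spot. Per the file headers the software was Agilent Feature Extraction, version 10.7.3.1, whose processed signals are background-subtracted, and on the arrays of scan 2 also divided by a multiplicative trend surface. A second deposited table has log2 values of 27228 probes, 14 of them MCM probes; within each array they differ from the log2 processed signal by a constant (to 0.05 for at least 99.4% of its probes). Array medians there are 0.949 to 1.06, and how the authors set the constants remains unknown. Here, log2 processed signals were set relative to each array's 75th percentile (1564 to 6693), and spots of 1 probe were averaged. Distorted areas were found from the median deviation from the 5-array median over 5 rows and 9 columns, and took 25.5% of spots. Control spots were left out, and saturated spots kept. Probes well above background on at least 2 arrays, with at least 3 values and 1 in each group, were fitted with limma 3.58.1 in R 4.3.3 (two-sided, Benjamini-Hochberg over all probes), tested first on simulated data. A gene is shown by its brightest tested probe. Names came from the RefSeq gene table (10012 of 36331 accessions matched). Probe sequences and genome positions were not used here.

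The MCM genes, the lists and the tests were chosen with earlier results of these data known. Genes other than MCM genes were named by rule (exceptions are marked where they stand): replication genes past either threshold, the 4 oocyte genes with the smallest p, and the 5 nearest in profile. Alternatives were other treatment of marked spots and distorted areas, normexp (offset 50, on median signals, since no mean signals were used), quantile normalization, the authors' log2 table, filters on dim probes, the scan as a block, leaving out each array, and the mean of a gene's probes. The block fits with marked spots kept or distorted areas left out, and leaving out each array with distorted areas left out, were added after seeing the data. Precision is limited by the number of arrays.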

Additional observations from a re-analysis of the deposited data

How the results depend on the processing

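No paired analysis was possible because the replicate numbers follow accession order and pair no samples; arrays of the same scan were compared through the scan as a block. With marked spots left out, 1 of all probes passed the adjusted p of 0.05 (limma). The count was 372 with marked spots kept, 108 with distorted areas left out (77 and 122 at limits of 0.3 and 1), 96 under quantile normalization, 243 with the authors' log2 table, 4 with probes well above background on all 5 arrays, and 0 under normexp, with no filter on dim probes and with the scan as a block. With the block it was 825 with marked spots kept and 258 with distorted areas left out. Without 1 array and with no block it was 0 with marked spots left out and 0 to 64 with distorted areas left out, the 64 without simazine 2. The looser rule took 2460 of all probes, and moved to 824 with distorted areas left out (512 and 1437 at the other limits), 1358 under normexp, 1406 with probes well above background on all 5 arrays, and 1048 with block and distorted areas left out, and to 1193 to 2908 without 1 array (618 to 1426 with distorted areas also left out). For MCM probes the adjusted count went from 0 to 1, each time mcm3.L, with marked spots kept, with distorted areas left out at 0.5 and 1, with the authors' table, and in both block fits with marked spots kept; without 1 array it was 0 to 0. The looser MCM count of 4 became 1 with distorted areas left out (0 at 0.3, where mcm3.L itself is left out, and 2 at 1), 2 under normexp and with the scan as a block, 1 with block and distorted areas left out, and 1 to 3 without 1 array. For replication partners the adjusted count went from 0 to 1 (orc1.L) in both block fits with marked spots kept, and the looser count of 3 became 1 with marked spots kept, at limits of 0.3 and 1 and with the authors' table, 5 with the scan as a block, and 0 to 5 without 1 array. Differences of mcm3.L, mcm7.L, mcm7.S and mcm10.L were negative under each of the 19 to 22 settings that gave a value, but their size moved: mcm3.L from -3.11 to -1.73, mcm7.L from -1.82 (without control 2) to -0.10 (without control 1), mcm7.S from -1.48 to -0.55 without the same arrays (for both mcm7 genes with distorted areas left out), and mcm10.L from -1.79 (mean of its probes) to -0.35 (without simazine 2 and distorted areas). The -1.79 is no measure of size, since arrays averaged different probes. Marked spots were left out there, so simazine 2 held only the dimmest mcm10.L probe (-5.79). Control 2 held that probe (-4.88) together with a brighter one (1.23). Taken singly with marked spots left out, these probes gave -0.88 and -0.53. Other directions turned between settings. For mcm6.2.S, -0.10 became 0.24 with marked spots kept, distorted areas left out or the authors' table, and 0.17 with the mean of its probes. Without 1 array mcm6.2.S was at -0.66 to 1.14, with 1.14 without control 2 and 0.80 without simazine 2 (distorted areas left out). For mcm4.L, 0.83 became -0.46 and -0.22 without control 2 or simazine 2 and distorted areas (-0.46 to 1.1 without 1 array). For mcm6.L, -0.74 became 0.06 without control 2 and distorted areas (-1.22 to 0.06 without 1 array). For zmcm3.L, -0.70 became 0.31 under normexp. For cdc6.S, 1.49 became -0.88 with marked spots kept or distorted areas left out, where another probe is the brightest. In these values it was -1.01 with the block. With the block and marked spots left out, cdc6.S did not turn (1.23). Without 1 array cdc6.S was at -1.21 to 1.74. The cause of the other turns was not tested. Normexp moved the median of all probes to 0.26, from 0.10, and leaving out control 2 with marked spots left out moved it to 0.30.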
